A study of Gallus gallus with 6 samples.

Results

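Genes for chromatin modifiers and remodelers were compared between Hb-eGFP+ cells and RFP+ control cells sorted from gastrulating chick embryos. Members were taken by gene symbol alone: the DNMT, TET, EZH, KDM, KMT, SETD, HDAC, SIRT, SMARC, CHD, CBX, BRD and ARID genes that had a probe set naming 1 gene on the Affymetrix Chicken Genome Array. This gave 83 genes of the 13051 measured, read by 218 of the 38439 probe sets, and the rule uses no expression value. Where several probe sets name a gene, the brightest by mean log2 signal over the 6 arrays stands for it.

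All embryos were electroporated at stage HH3 with Hb-eGFP and with pCAGGS-RFP, which labels electroporated cells ubiquitously. Hb-eGFP is a plasmid with eGFP under a minimal promoter (human beta-globin) and a short regulatory fragment of chick Cerberus. Both groups came from embryos given both plasmids, and whether each sorted cell held both is not given. At HH5-6 the embryos were dissociated with trypsin, and FACS separated eGFP+ cells (Hb-eGFP+, 3 samples) from eGFP-/RFP+ cells (RFP+ control, 3 samples), in 3 pools of 4 embryos. The RFP+ control cells were whatever other electroporated cells these embryos held and not 1 cell type, and the sources used here differ on which version of the enhancer fragment the sorted embryos carried. Which Hb-eGFP+ sample came from the same pool as which control is not given, and the p-values measure the spread between these samples.

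Chromatin modifiers write, remove or read chemical marks on DNA and on histone tails, and remodelers use ATP to move, evict or exchange nucleosomes. DNA methyltransferases and TET dioxygenases set the balance of cytosine methylation, while histone methyltransferases, demethylases and deacetylases set the marks that Polycomb, HP1 and bromodomain proteins read. Several of these genes are known for blood and vessels: in mice the remodeler ATPase SMARCA4 is needed for primitive erythropoiesis and yolk sac vessels and KMT2A for definitive hematopoiesis, and in human blood DNMT3A and TET2 are often mutated in clonal hematopoiesis.

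The reporter and the tissue markers separated the groups. The GFP probe set averaged 17083 ± 229 in the Hb-eGFP+ arrays and 926 ± 80.5 in the RFP+ control arrays (SD, n = 3 each). Medians of the 56 other reporter probe sets were 31.9 to 37.8 per array, so the RFP+ control arrays held GFP signal above these. The source of that signal was not tested. The summed signal of 14 hemangioblast and endothelial markers was 37243 to 39532 in Hb-eGFP+ and 15100.2 to 15375 in RFP+ control, and 12 of the 14 were higher, among them LMO2 and TAL1. The sums of 12 neuroectoderm markers (1709 to 1868 in Hb-eGFP+, 11270.4 to 11388 in RFP+ control), 9 paraxial mesoderm markers (1780.2 to 1944 in Hb-eGFP+, 11427 to 11981 in RFP+ control) and 9 endoderm markers (8773 to 9513 in Hb-eGFP+, 17250.1 to 18310.0 in RFP+ control) ran the other way. Of these, 8, 7 and 7 genes were lower, OTX2 and MSGN1 included. In bulk RNA fewer cells of a type and less RNA per cell cannot be told apart, and the part of tissue composition in the values below was not tested.

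By the point estimate of the probe set that stands for each, the chromatin genes differed by less than 1.7-fold between the 2 populations. Their median size of change was near that of all genes. Their log2 fold changes (Hb-eGFP+ over RFP+ control) ran between -0.70 and 0.74 with a median of -0.08, against -4.33 to 2.51 and a median of 0.01 over all genes, whose larger number widens the range. Regardless of sign, the median size of the log2 fold change was 0.17 for the 83 and 0.14 for all genes. None of the 83 exceeded a 1.7-fold difference, the minimum the study's methods ask for, whereas 769 of all genes did (5.89%). The 95% interval lay wholly within 1.7-fold for 78 of the 83, which is 94% of them against 88% of all genes. The genes whose interval reached beyond were ARID5B, DNMT3A, SMARCA4, CBX8 and HDAC3. A signal above the median of all probe sets (89.3) was found for 76 of the 83 (91.6%, against 72.9% of all genes). The 7 dimmer ones were ARID2, EZH1, SMARCD1, TET3, HDAC7, KDM1B and KMT5B, for which a difference would be harder to detect.

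By limma with Benjamini-Hochberg adjustment over all 13051 genes and a threshold of 0.05, 5 of the 83 were higher in Hb-eGFP+ cells (6.02%, background 9.19%) and 9 were lower (10.8%, background 10.7%). The 14 calls are 16.9% of the chromatin genes, below the 19.9% of all genes that were called, a share near the background. Among genes above the median signal, 18.4% of the chromatin genes were called, against 23.8% of all genes. The 9 lower genes were DNMT3A, DNMT1, ARID5B, HDAC2, HDAC10, BRD1, CBX2, CHD7 and CHD2, and the 5 higher genes were HDAC3, KMT2C, KDM4C, SETD7 and TET2. The groups' arrays did not overlap for 32 of the 83, which is 38.6% against a background of 39.4%, with Hb-eGFP+ above for 11 (background 20.6%) and below for 21 (background 18.8%). More of the 83 lay below zero than of all genes, 60 of 83 (72.3%) against 47.7%, and quantile normalization left 52 of 83 below zero against 45.2% of all genes. With replicate 1 of either group left out the number of higher genes was 3, and with replicate 3 of either group left out the number of lower genes was 5. After the study's rule, a lower 90% bound of the ratio of group means was computed, here from the spread between arrays. This bound exceeded 1.7 for 0 of the 83 in either direction. It did so for 3.43% of all genes (1.28% higher and 2.15% lower). An unadjusted limma p under 0.05 was found for 29 of the 83 and for 4425 of the 13051 genes, a similar share.

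**Figure D1:**
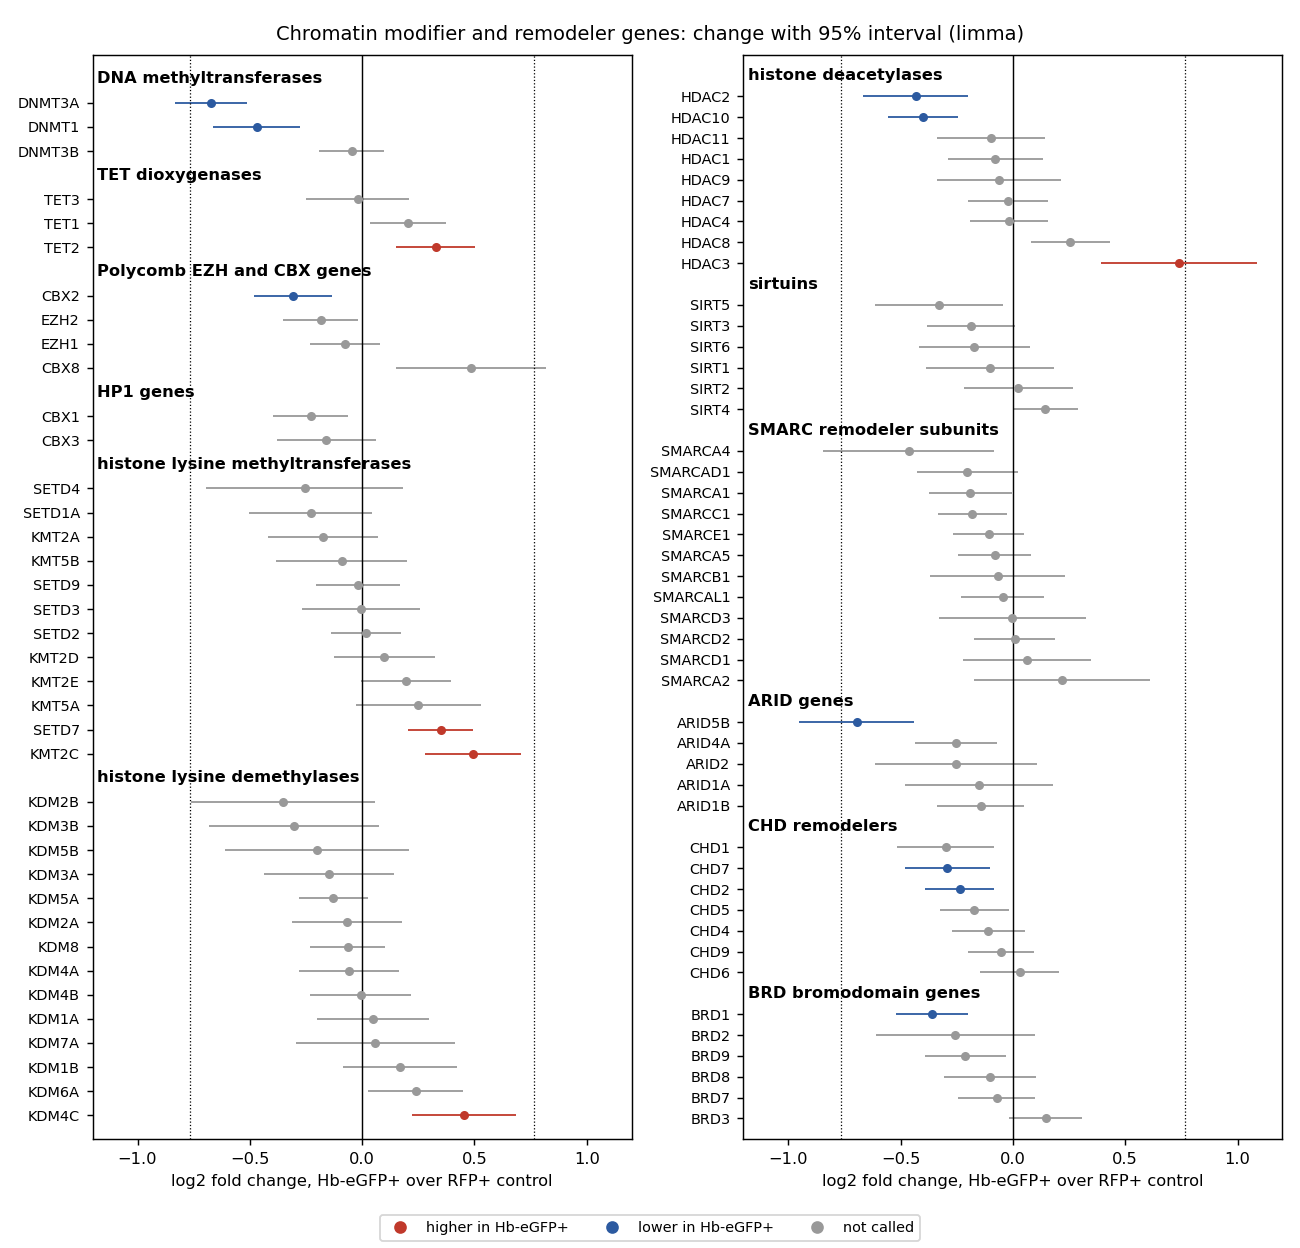
Log2 fold change (Hb-eGFP+ over RFP+ control) with its 95% interval from limma for each of the 83 chromatin genes, by family. Colour marks the 5 higher and 9 lower genes, dotted lines mark 1.7-fold, and every point lies between the dotted lines.

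DNA methylation genes held the smallest adjusted p of the whole set. Of the 3 DNA methyltransferases measured, 2 were lower and the third was not called (66.7% called, against 19.9% of all genes). DNMT3A, a de novo methyltransferase that places methyl groups on unmethylated DNA, had signals of 1896, 1899.9 and 1896 in Hb-eGFP+ and 3110.3, 2841 and 3133 in RFP+ control. The 3 Hb-eGFP+ arrays were almost the same and all lay well below the controls. Its means were 1897 ± 2.13 in Hb-eGFP+ and 3028 ± 162 in RFP+ control (SD, n = 3 each), a log2 fold change of -0.67 (SE 0.07, limma adjusted p = 0.00042). A second DNMT3A probe set, with a signal of 258, 249.8 and 258 in Hb-eGFP+ and 306, 234 and 276 in RFP+ control, overlapped between the groups and was at -0.08.

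DNMT1, the maintenance methyltransferase that copies methylation after replication, had 224, 222 and 212 in Hb-eGFP+ and 333, 279 and 300.2 in RFP+ control. Every Hb-eGFP+ array was below every control, and the log2 fold change was -0.47 (SE 0.08, limma adjusted p = 0.0068). The other de novo enzyme, DNMT3B, had 6331, 6159.7 and 6169 in Hb-eGFP+ and 6392, 6619.7 and 6258 in RFP+ control. These arrays overlapped, and the difference of -0.05 had a 95% interval of -0.19 to 0.10 (limma adjusted p = 0.65). Set against DNMT3B on the same array, DNMT3A was lower by 0.63 on the log2 scale in Hb-eGFP+ than in RFP+ control (two-sided exact permutation test, p = 0.1, which is the smallest value 3 arrays against 3 can give). This pair was chosen after the values were seen.

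TET dioxygenases oxidize methylated cytosine and so start its removal. TET2 had 385, 415 and 365 in Hb-eGFP+ and 299, 323 and 305 in RFP+ control. The groups did not overlap, and TET2 was higher with a log2 fold change of 0.33 (SE 0.08, limma adjusted p = 0.021). The call was lost in 4 of the 6 fits that each left out 1 array (those without Hb-eGFP+ replicate 1 or 2, or RFP+ control replicate 1 or 3), and the adjusted p over all 6 ran from 0.037 to 0.073. One of the 4 further TET2 probe sets was at -1.06 without passing the test, with Hb-eGFP+ arrays spread over 114 to 237 and RFP+ control arrays over 215 to 556. TET1 had 2595, 2926 and 2666 in Hb-eGFP+ and 2438, 2297 and 2360.4 in RFP+ control, also without overlap, but its difference of 0.20 (95% interval 0.03 to 0.37) missed the threshold (limma adjusted p = 0.093). Further TET1 probe sets were at 0.42 and 0.12, neither called in the fit over all probe sets. Only 2 of the 13 alternative limma fits called TET1 higher. These were the mean over probe sets (limma adjusted p = 0.040) and the variance trend with robust moderation (limma adjusted p = 0.035). TET3 was dim and at -0.02.

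Polycomb proteins keep developmental genes silent through a methyl mark on histone H3. EZH2, which places the mark, had 3035, 3237 and 2978 in Hb-eGFP+ and 3549, 3319 and 3647 in RFP+ control. The arrays did not overlap, yet the difference of -0.18 (95% interval -0.35 to -0.02) was not called (limma adjusted p = 0.11), and EZH1 was at -0.08. Of the CBX proteins that read the mark, CBX2 was lower, with 128, 129 and 137 in Hb-eGFP+ against 152, 166 and 170.0 in RFP+ control, and CBX8 was not called. The log2 fold change of CBX2 was -0.31 (SE 0.07, limma adjusted p = 0.025), and its adjusted p rose to as much as 0.076 and missed the threshold in 5 of the 6 fits that left out 1 array, all but the one without RFP+ control replicate 1. CBX8 ran the other way, with 168, 118 and 144 in Hb-eGFP+ and 91.7, 98.5 and 116 in RFP+ control, a difference of 0.48 (95% interval 0.15 to 0.82) just outside the threshold (limma adjusted p = 0.052). The second probe set of CBX8 was at -0.08 and that of CBX2 at -0.18, neither called in the fit over all probe sets.

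The HP1 proteins bind a different methyl mark on histone H3, that of compact heterochromatin. CBX1 had 2438, 2189.9 and 2171 in Hb-eGFP+ and 2680.5, 2632 and 2644 in RFP+ control, a difference of -0.23 (95% interval -0.40 to -0.06, limma adjusted p = 0.062) that was not called although the arrays did not overlap. CBX3 overlapped, with 3793, 4754 and 4492 in Hb-eGFP+ and 4834, 4709.8 and 4969 in RFP+ control, and was at -0.16 (95% interval -0.38 to 0.06).

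Among 12 genes of the KMT and SETD families, grouped by symbol alone as histone lysine methyltransferases, 2 were higher. By limma 0 were lower (also 0 at an unadjusted p under 0.05), and the median was 0.01. The 16.7% called compares with 19.9% of all genes. KMT2C, which methylates histone H3 at enhancers, had 1551, 1644 and 1809.7 in Hb-eGFP+ and 1104, 1299.7 and 1156 in RFP+ control. The lowest Hb-eGFP+ array was above the highest control, and the log2 fold change was 0.49 (SE 0.09, limma adjusted p = 0.0087). Further KMT2C probe sets lay between -0.22 and 0.53, and only that at 0.53 was called in the fit over all probe sets. The related enzymes KMT2A (-0.18) and KMT2D (0.10) were not called. Set against KMT2A on the same array, KMT2C was higher by 0.67 on the log2 scale (exact permutation test, two-sided p = 0.1, the smallest possible here), a pair also chosen after its values were seen.

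SETD7, which adds a single methyl group to histone H3 and to several transcription factors, had 365, 383 and 375 in Hb-eGFP+ and 290.1, 294 and 298 in RFP+ control. Both groups were tight and well apart, with a log2 fold change of 0.35 (SE 0.06, limma adjusted p = 0.007). The second SETD7 probe set overlapped between the groups, was at 0.15 and was not called in the fit over all probe sets. SETD2, which methylates histone H3 along transcribed genes, had 1996, 2196 and 2099 in Hb-eGFP+ and 2074, 2092 and 2046 in RFP+ control. Its arrays overlapped and its interval was narrow (0.02, 95% interval -0.14 to 0.17).

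Of 14 histone lysine demethylases 1 was higher and 0 were lower by limma (0 lower at an unadjusted p under 0.05). That is 7.14% called, against 19.9% of all genes. KDM4C, which removes methyl groups from histone H3, had 122, 117 and 96.4 in Hb-eGFP+ and 79.5, 79.2 and 84.8 in RFP+ control. The third Hb-eGFP+ array lay nearest the controls but still above them, and the log2 fold change was 0.45 (SE 0.10, limma adjusted p = 0.017). The call was lost when replicate 1 of either group or RFP+ control replicate 2 was left out (adjusted p up to 0.059), and the second KDM4C probe set was at -0.02. KDM1A, the demethylase of the CoREST complex, had 3189, 3211 and 3014 in Hb-eGFP+ and 3203, 3376 and 2585 in RFP+ control, overlapping arrays with a difference of 0.05 (95% interval -0.20 to 0.30). KDM6A, which removes the Polycomb mark, was at 0.24 (95% interval 0.03 to 0.45, limma adjusted p = 0.11).

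Of 9 histone deacetylases measured, 1 was higher, 2 were lower and 6 were not called (33.3% called, against 19.9% of all genes). HDAC3, the catalytic subunit of the NCoR and SMRT corepressor complexes, had 503, 377 and 433 in Hb-eGFP+ and 215, 273 and 300.5 in RFP+ control. Both groups were spread, without overlap, and the log2 fold change of 0.74 (SE 0.15, 95% interval 0.39 to 1.09, limma adjusted p = 0.012) was the highest of the 83. The ratio of its means was 1.66. Its second probe set, with signals of 54.7 to 63.9 in Hb-eGFP+ and 46.4 to 55.7 in RFP+ control, was at 0.23 and was not called.

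HDAC2, a deacetylase of the NuRD, SIN3 and CoREST complexes, had 3205, 3974 and 3273 in Hb-eGFP+ and 4636, 4427 and 4999 in RFP+ control. All controls were above all Hb-eGFP+ arrays, the second of which was nearest to them, and the log2 fold change was -0.43 (SE 0.10, limma adjusted p = 0.022). When replicate 1 or 3 of either group was left out, the adjusted p missed the threshold and was at most 0.087. HDAC1, its partner in the same complexes, overlapped with 1679, 1849.6 and 1764 in Hb-eGFP+ and 1890.4, 2039.8 and 1670.0 in RFP+ control (-0.08, 95% interval -0.29 to 0.13). HDAC10, a deacetylase of the cytoplasm that acts on polyamines, had 199, 216 and 206 in Hb-eGFP+ and 267, 271 and 281 in RFP+ control. These groups were tight, did not overlap and differed by -0.40 (SE 0.07, limma adjusted p = 0.0051). Further HDAC10 probe sets, both dimmer, were at -0.06 and 0.09 and were not called.

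HDAC8, which deacetylates the cohesin ring, had 1894, 1816 and 1851 in Hb-eGFP+ and 1471, 1689 and 1506 in RFP+ control. It lay just outside the threshold despite non-overlapping arrays (0.26, 95% interval 0.08 to 0.43, limma adjusted p = 0.052). HDAC3 against HDAC2 on the same array was higher by 1.17 on the log2 scale in Hb-eGFP+ than in RFP+ control (exact permutation test, two-sided p = 0.1, the smallest possible here), the third pair chosen after its values were seen. HDAC4, HDAC7, HDAC9 and HDAC11 lay between -0.10 and -0.02.

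The sirtuins, deacylases that use NAD, gave 0 calls of 6 by limma, against 19.9% of all genes called. At an unadjusted p under 0.05, 1 was higher and 1 lower. SIRT5, a mitochondrial desuccinylase, had 179, 234 and 177 in Hb-eGFP+ and 228, 243 and 266 in RFP+ control. One Hb-eGFP+ array lay within the control range, and the difference of -0.33 (95% interval -0.62 to -0.04) was not called (limma adjusted p = 0.10). SIRT2, mainly a tubulin deacetylase, had 796, 646 and 628 in Hb-eGFP+ and 708, 640.1 and 677 in RFP+ control, which overlapped (0.02, 95% interval -0.22 to 0.27).

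**Figure D2:**
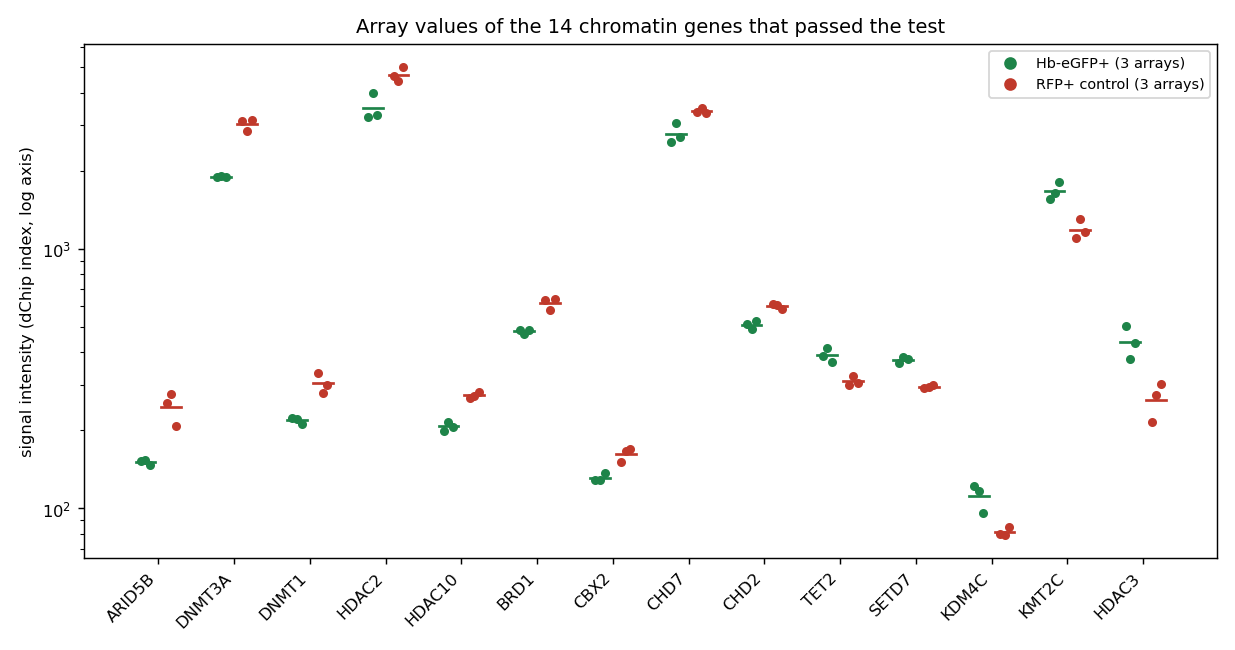
Signal intensity on a log axis on each of the 3 Hb-eGFP+ and 3 RFP+ control arrays for the 14 chromatin genes that passed the test, ordered by log2 fold change, with a bar at the group mean. The points of the 2 groups do not overlap for any of the 14, which passing the test makes likely, and 39.4% of all genes show no overlap. The DNMT3A points of Hb-eGFP+ lie between 1896 and 1899.9.

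The SMARC genes encode the ATPases and core subunits of SWI/SNF and ISWI remodelers and also SMARCAD1 and SMARCAL1, which are related ATPases outside those complexes. They gave 0 calls of 12 by limma, against 19.9% of all genes called. At an unadjusted p under 0.05, 0 were higher and 3 lower, against 2196 higher and 2229 lower of all 13051 genes. SMARCA4, the BRG1 ATPase, had 1201, 1377 and 1282 in Hb-eGFP+ and 1588, 1503 and 2333 in RFP+ control. Its groups did not overlap, but the third control array stood far above the other two, and the difference of -0.46 (95% interval -0.85 to -0.08) was not called (limma adjusted p = 0.09). The alternative SWI/SNF ATPase gene SMARCA2 was at 0.22 (95% interval -0.17 to 0.61). SMARCA5, the ISWI ATPase, had 5343, 6019 and 5623 in Hb-eGFP+ and 6083, 5958 and 5903 in RFP+ control, overlapping by 1 array, with a difference of -0.08 (95% interval -0.24 to 0.08).

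Of 5 ARID genes, which share a DNA-binding domain, 1 was lower (20% called, against 19.9% of all genes). ARID5B, which in mice and human cells recruits a histone demethylase to its targets, had 153, 154 and 147 in Hb-eGFP+ and 256, 277 and 207 in RFP+ control. The Hb-eGFP+ arrays were close together and all below the more spread controls. The log2 fold change of -0.70 (SE 0.11, limma adjusted p = 0.004) was the lowest of the 83. Its second probe set was lower too (-0.40, adjusted p = 0.043 in the limma fit over all probe sets). ARID1B, a SWI/SNF subunit, had 3671, 3605 and 3425 in Hb-eGFP+ and 3753, 3726 and 4365 in RFP+ control and was not called (-0.14, 95% interval -0.34 to 0.05). Its further probe sets went both ways, 1 lower (-0.45) and 1 higher (0.50). ARID4A was at -0.25 (limma adjusted p = 0.059).

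The CHD genes encode chromodomain remodelers, and 2 of 7 were lower (28.6% called, against 19.9% of all genes). CHD7, which in humans is mutated in CHARGE syndrome, had 2572, 3048 and 2696 in Hb-eGFP+ and 3361, 3478 and 3321 in RFP+ control. The groups did not overlap and differed by -0.29 (SE 0.08, limma adjusted p = 0.042). CHD2 had 515, 491 and 527 in Hb-eGFP+ and 613, 609 and 584 in RFP+ control, likewise apart, with a difference of -0.24 (SE 0.07, limma adjusted p = 0.041). Both calls lie just inside the threshold. The CHD2 call was lost whichever array was left out (adjusted p 0.058 to 0.13), and the CHD7 call in 5 of 6 such fits, all but the one without Hb-eGFP+ replicate 2 (adjusted p up to 0.14). Further CHD7 probe sets lay between -1.03 and 0.10, the brightest of them at -0.05. None of these was called in the fit over all probe sets.

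A second CHD2 probe set gave the opposite direction, with 439, 364 and 391 in Hb-eGFP+ and 311, 297 and 297 in RFP+ control (0.40, adjusted p = 0.040 in the limma fit over all probe sets). No direction can therefore be given for CHD2 as a gene. CHD1, which binds active promoters, lay just outside the threshold with 713, 795 and 726 in Hb-eGFP+ and 959, 817 and 981 in RFP+ control (-0.30, 95% interval -0.51 to -0.08, limma adjusted p = 0.059). CHD4, the ATPase of NuRD, had 3119, 3106 and 2970.3 in Hb-eGFP+ and 3419, 3106 and 3406 in RFP+ control, with the lowest control below the first and second Hb-eGFP+ arrays (-0.11, 95% interval -0.27 to 0.05).

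Bromodomain proteins read acetylated histones, and 1 of 6 BRD genes was lower (16.7% called, against 19.9% of all genes). BRD1, a scaffold of histone acetyltransferase complexes, had 485, 472 and 487 in Hb-eGFP+ and 634, 579.8 and 640.0 in RFP+ control. All Hb-eGFP+ arrays were below all controls, and the log2 fold change was -0.36 (SE 0.07, limma adjusted p = 0.0098). The brightest further BRD1 probe set was at 0.02 and the others lay between -0.47 and -0.24, none of them called. BRD7, a SWI/SNF subunit, overlapped with 2305, 2478 and 2447 in Hb-eGFP+ and 2502, 2401 and 2705 in RFP+ control (-0.07, 95% interval -0.24 to 0.10). BRD3, a BET protein that in mouse erythroid cells binds the acetylated blood regulator GATA1, had 559, 569 and 587 in Hb-eGFP+ and 531, 484 and 536 in RFP+ control and was not called (0.15, 95% interval -0.02 to 0.31).

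The array reads 63 of the 83 genes with more than 1 probe set, which gives 135 further measurements of the same RNA. In the limma fit over all 38439 probe sets, where 9.07% were called, 3 of these 135 were higher and 4 lower. For 12 of the 14 called genes 34 further probe sets exist: 25 had the sign of the representing probe set, 2 were called in the same direction (ARID5B and KMT2C) and 1 in the other (CHD2). The second KMT2C probe set comes from the same transcript cluster and is no separate region. Of the 14 representing probe sets themselves, 9 passed in this larger fit, and HDAC2, CBX2, CHD7, CHD2 and TET2 did not. Averaging all probe sets of each gene ended the calls of CBX2, CHD2, CHD7, KDM4C, TET2, KMT2C (limma adjusted p = 0.14) and HDAC10 (limma adjusted p = 0.33). Among the other settings, quantile normalization ended the calls of CBX2 and CHD2, and median centring that of CHD7. Besides those of ARID1B, 1 further probe set each of CHD6 (-0.46) and KDM4A (-0.50) was lower although the gene's representing probe set was not called. Probe sets can read different transcripts or ends of a gene, and which parts they read is not analysed here.

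**Figure D3:**
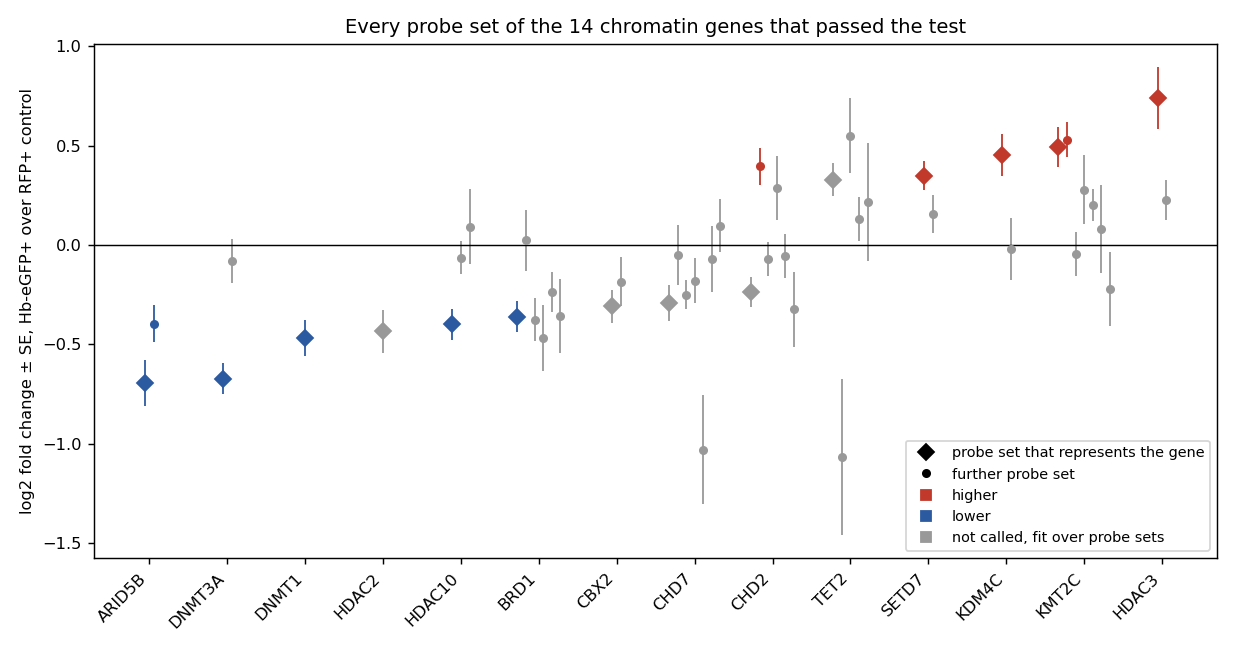
Log2 fold change ± SE (Hb-eGFP+ over RFP+ control) of every probe set of the 14 called genes, with diamonds for the probe set that represents the gene and circles for further ones, coloured by the call in the fit over all probe sets. CHD2 has a circle called in the direction opposite to its diamond, and a grey circle of TET2 lies at -1.06.

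Genes that work with these enzymes were read from lists chosen by role. Of 24 other Polycomb subunits 1 was higher and 3 lower, with a median of -0.01, and the 16.7% called is near the 19.9% of all genes. SCML2, a Polycomb protein, had 2179, 2289.9 and 1855 in Hb-eGFP+ and 775, 676 and 583 in RFP+ control. The groups lie far apart, at a log2 fold change of 1.64 (SE 0.12, limma adjusted p = 0.0001), beyond the range of the 83 genes above, and both of its probe sets were higher. RBBP7, a histone-binding subunit shared by the Polycomb, NuRD and SIN3 complexes, had 1184, 1225 and 1270.3 in Hb-eGFP+ and 1667, 1669 and 1644 in RFP+ control (-0.44, limma adjusted p = 0.0027). RYBP (-0.57) and BMI1 (-0.62), both subunits of the histone H2A ubiquitin ligase complex, were lower too, BMI1 with 166, 207 and 182 in Hb-eGFP+ and 272, 311 and 268 in RFP+ control. The second RYBP probe set was at 0.04 and was not called in the fit over all probe sets.

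Corepressor subunits from NuRD, CoREST, SIN3 and the NCoR and SMRT complexes gave 1 higher and 3 lower of 17 (23.5% called, against 19.9% of all genes). MBD2, which tethers NuRD to methylated DNA, was higher (0.40), and RBBP7, TBL1XR1 and RCOR3 were lower. In the fit over all probe sets no probe set of MBD2 or RCOR3 was called. TBL1XR1, a subunit of the NCoR and SMRT complexes in which HDAC3 acts, had 1065, 1055 and 1088 in Hb-eGFP+ and 1440.3, 1421 and 1642 in RFP+ control (-0.49, limma adjusted p = 0.0042), opposite in sign to HDAC3. RCOR3, a CoREST protein, was at -0.29.

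DNA methylation readers and cofactors gave 2 higher and 1 lower of 10 (30% called, against 19.9% of all genes). GADD45A, a stress-response gene linked to DNA demethylation, had 1052, 983 and 1018 in Hb-eGFP+ and 1551, 1651 and 1635 in RFP+ control (-0.66, limma adjusted p = 0.00038). ZBTB38, a zinc finger protein that binds methylated DNA, was higher (0.58), and MBD2 counts here as well. The second ZBTB38 probe set was at -0.10 and was not called in the fit over all probe sets. The maintenance cofactor UHRF1, which brings DNMT1 to replicated DNA, was not called (-0.12, 95% interval -0.35 to 0.11). The related gene UHRF2 had 247, 548 and 228 in Hb-eGFP+ and 907, 569 and 598 in RFP+ control. Its second Hb-eGFP+ array lay close below the controls, and the difference of -1.11 (95% interval -1.90 to -0.31) missed the threshold (limma adjusted p = 0.059), as did that of GADD45G, a relative of GADD45A (-0.33, limma adjusted p = 0.055).

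Of 15 histone acetyltransferases 13.3% were called, against 19.9% of all genes. KAT2B (0.58) was higher and the coactivator NCOA2 (-0.28) lower, while HAT1, which acetylates new histones, was not called (0.24, limma adjusted p = 0.059). No NCOA2 probe set passed the fit over all probe sets. Of 13 other histone methyltransferases (7.69% called) DOT1L, which methylates the core of histone H3, was higher (0.32). In the fit over all probe sets the representing DOT1L probe set was not called. Further DOT1L probe sets lay between -0.07 and 0.63, and only that at 0.63 was called. SUV39H2 (-0.28), a heterochromatin enzyme, and EHMT1 (-0.19), a methyltransferase of euchromatin, were not called. The 7 genes of the COMPASS core list, partners of the KMT2 enzymes, gave 0 calls by limma, against 19.9% of all genes. At an unadjusted p under 0.05 there were also 0, and HCFC2 (0.18), NCOA6 (0.12) and WDR82 (0.09) came nearest. Among 21 other SWI/SNF, INO80, SRCAP and ISWI subunits 9.52% were called. By limma 0 were higher (0 also at an unadjusted p under 0.05) and 2 were lower, BCL7A (-0.57) and BAZ2B (-0.25). Further BCL7A probe sets lay between -0.73 and 0.02, and none of them was called in the fit over all probe sets. Further BAZ2B probe sets lay between -0.33 and -0.03, and no BAZ2B probe set passed the fit over all probe sets. The INO80 subunit ACTR8 (-0.30) was not called, and the median of this list was -0.18. Of 17 histone chaperones (5.88% called) the histone carrier NASP was lower (-0.26), and HIRA (0.24) and ANP32E (-0.20) were not called. The representing NASP probe set was not called in the fit over all probe sets, where further ones at -0.54 and -0.44 were lower.

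DNMT1 and NASP are expressed most in dividing cells, so replication and mitosis genes are given beside them. Of 24 measured, 12.5% were called, against 19.9% of all genes. By limma 0 were higher (2 at an unadjusted p under 0.05) and 3 were lower, TYMS (-0.26), RRM1 (-0.29) and NUSAP1 (-0.25). No probe set of TYMS, RRM1 or NUSAP1 passed the fit over all probe sets. The median of the 24 genes was 0.00, and their summed signal was 69005.5 to 69559.8 in Hb-eGFP+ and 67530.2 to 71041 in RFP+ control. The control arrays spanned the whole Hb-eGFP+ range. The part of cell division in the values of DNMT1 and NASP was not tested.

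**Figure D4:**
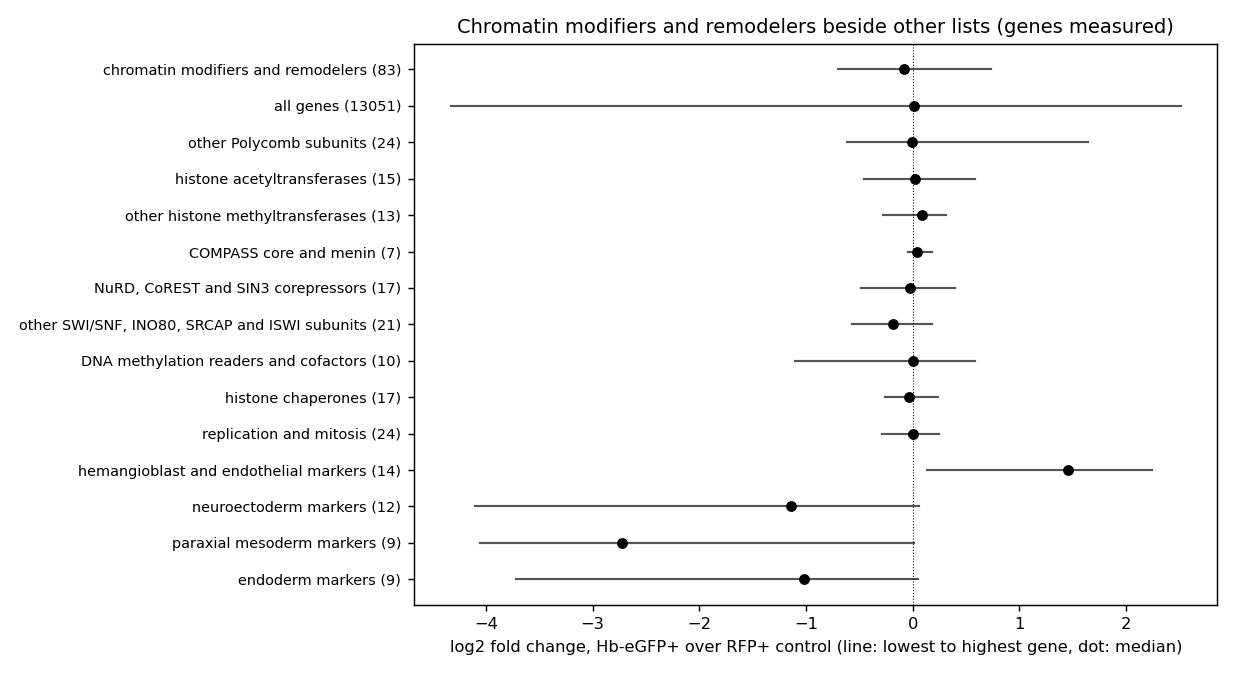
Median (dot) and lowest to highest (line) log2 fold change, Hb-eGFP+ over RFP+ control, of the 83 chromatin genes, of all 13051 genes, and of the lists, with the number of genes measured in brackets. The medians of the chromatin lists lie between -0.18 and 0.09 and the highest chromatin gene is SCML2 at 1.64, while the hemangioblast and endothelial markers have a median of 1.46 and the paraxial mesoderm markers one of -2.73.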

How the data were processed

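RNA of 3 Hb-eGFP+ and 3 RFP+ control samples (40 ng each, amplified in 2 cycles) was hybridised to 6 arrays. The authors read them with GCOS 1.4 (named in the submitters' processing notes) and deposited 1 dChip model-based index per probe set, a signal intensity on a linear scale from the Perfect Match probes. The kind of dChip normalization is not given in the sources used. Array medians were 87.7 to 91.1, and log2 intensities had interquartile ranges of 2.32 to 2.39 in Hb-eGFP+ and 2.42 to 2.48 in RFP+ control. Precision is limited by the 3 arrays per group. There were 0 value columns of samples outside the series.

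Of the probe sets, 27168 have 1 gene in the platform annotation, 177 several and 11094 none there; only those with 1 gene were named, and 26853 were found in the RefSeq table of GRCg7b. Log2 values were compared with limma (lmFit and eBayes, two-sided, with a term for the group alone) over 13051 genes, with Benjamini-Hochberg adjustment at 0.05. Further probe sets were tested in a fit over all probe sets. The study's rule, a lower 90% bound of the ratio above 1.7, was applied with the spread between arrays. On simulated data for this comparison (13051 genes), limma called 70.1% of 1.5-fold, 95.5% of 2-fold and 100% of 4-fold changes, and 0.0467% of unchanged genes. These changes were placed in 67, 67 and 66 genes, all above the median signal, so the shares do not cover dim genes. The simulation also held far fewer changed genes than the 2596 called in the data.

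The chromatin genes and the lists were chosen with earlier results of these data known. Array values are given for all called genes, and in each family for the gene of smallest adjusted p and that of highest signal; of each chromatin list, the 3 genes of smallest adjusted p are named. BMI1, UHRF1, UHRF2, GADD45G and the chromatin genes just outside the threshold were added with their values known. The fit was repeated after quantile normalization or median centring, without dim probe sets, with 50 added before log2, with a variance trend and robust moderation, with a block for the replicate number, with single arrays left out, and on the mean over probe sets. Genes that match the symbols but have no probe set naming them alone, such as CBX5 and SMARCC2, are not analysed here. The software was limma 3.58.1 in R 4.3.3, with tables made in pandas 2.3.3 (Python 3.11.15) and figures in matplotlib 3.10.9.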

Additional observations from a re-analysis of the deposited data

How the results depend on the processing

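The counts of higher and lower chromatin genes were 5 and 9. They were 6 and 8 after quantile normalization, 7 and 8 after median centring, and 7 and 12 without dim probe sets (76 genes tested). With an offset of 50 they were 7 and 12, and with a variance trend and robust moderation 8 and 14. The share called was above that of all genes with the offset (22.9% against 21.7%) and with the variance trend (26.5% against 22.1%). It was also above without Hb-eGFP+ replicate 2 (19.3% against 18.1%), and below in the other limma fits. Leaving out 1 array gave 3 to 6 higher and 5 to 10 lower genes, the mean over probe sets 3 and 6, and the lower bound above 1.7 gave 0 and 0. Over all genes, 1200 higher and 1396 lower became 742 higher at the fewest with 1 array left out, and 167 and 280 with the lower bound. ARID5B, BRD1, DNMT1, DNMT3A, HDAC3 and SETD7 were called in all 13 alternative limma fits, HDAC10 and KMT2C in all but the mean over probe sets, and no called gene changed sign in any of the 13. The other 6 were lost with at least 1 array left out, and 12 genes were called only in an alternative, CBX8 in 7 of them. Samples with the same replicate number had deviations that correlated at -0.159, -0.0738 and 0.193. This does not show a pairing and does not settle whether a number marks a pool. With the replicate block, 5 genes were higher and 6 lower, and CHD2, CHD7 and HDAC2 were not called. Of the 6 samples, those numbered 3 correlated best with their own number and the other 4 did not. The cause of these changes was not tested. Signals near those of the other reporter probe sets (31.9 to 37.8), as for SMARCD1, limit what can be detected.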

Other observations

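Histone variant and high mobility group genes, listed after the values were seen, gave 0 higher genes by limma (1 at an unadjusted p under 0.05) and 3 lower of 14 measured, with a median of -0.12. The 21.4% called compares with 19.9% of all genes. HMGB2, an abundant DNA-bending protein of dividing cells, had 642, 989.9 and 776 in Hb-eGFP+ and 1248, 1173 and 1211 in RFP+ control (-0.62, limma adjusted p = 0.024). H2AFY2, a macroH2A variant of silent chromatin, had 1854, 1700.0 and 1793 in Hb-eGFP+ and 2220.4, 2225 and 2308 in RFP+ control (-0.34, limma adjusted p = 0.011). H3F3C, a histone H3 variant, was at -0.26. Its representing probe set was not called in the fit over all probe sets, where a further one at -0.42 was lower. In each of the 3 genes all Hb-eGFP+ arrays were below all controls, as in 18.8% of all genes.

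A probe set that the platform annotation names CBX7, a Polycomb reader, has a gene ID that was not found in the RefSeq table and was left out of the 83. It had 55.7, 55.0 and 48.4 in Hb-eGFP+ and 42.1, 45.5 and 47.9 in RFP+ control, without overlap, and was not called (0.23, adjusted p = 0.19 in the limma fit over all probe sets).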
